A study of Arabidopsis thaliana with 18 samples.

Results

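Type 2C protein phosphatases (PP2C) of clade A are the brake of abscisic acid (ABA) signalling in plants, and their 9 genes in Arabidopsis thaliana are ABI1, ABI2, HAB1, HAB2, AHG1, AHG3, HAI1, HAI2 and HAI3. The 9 were chosen by locus, as the whole of the clade, out of the 33602 loci counted. All 9 had enough reads to be among the 22795 genes tested. When ABA is low, these phosphatases keep SnRK2 kinases dephosphorylated and inactive. When ABA is bound by its PYR/PYL receptors, the receptor blocks the phosphatase, the kinases become active, and they switch on ABF-type transcription factors, among whose targets are clade A PP2C genes themselves. The HAI (highly ABA-induced) genes form a subgroup, and mutants of them are known to accumulate more proline at low water potential. HAI1 has been reported to act on the protein product of AHL10, one of the genes disrupted in the study.

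Poly(A) RNA of whole seedlings was sequenced in 18 libraries, 3 for each of 6 groups, and the design text describes the 3 as separate biological experiments. The groups were ahl10-1 at stress and at control, rrp6l1-2 at stress and at control, and the wild type (WT, accession Col-0) at stress and at control. AHL10 encodes an AT-hook DNA-binding protein and RRP6L1 a relative of the exosome-associated nuclease RRP6, and each mutant is represented by 1 T-DNA insertion allele. All seedlings grew without sugar under continuous light, and stressed and control ones alike are listed with a transfer at 7 days. The stressed ones went to agar infused with polyethylene glycol at -0.7 MPa, and the control ones were at -0.25 MPa. All were harvested 96 h later, at 11 days. Polyethylene glycol draws water out of the tissue and lowers the water potential as drying soil does.

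Libraries held 57996104 to 68555138 reads assigned to genes. AHL10 was at 29.7 ± 2.59 CPM, reads scaled to the size of the library, in ahl10-1 and 63.2 ± 1.26 CPM in WT at stress (mean ± SD, n = 3), and at 22.8 ± 2.34 CPM in ahl10-1 and 45.9 ± 0.706 CPM in WT at control, so part of its transcript was still counted in the mutant. RRP6L1 was at 5.07 ± 1.38 CPM in rrp6l1-2 and 28.3 ± 0.687 CPM in WT at stress, and at 7.23 ± 1.68 CPM in rrp6l1-2 and 26.9 ± 1.45 CPM in WT at control. Levels are given below as normalised RPKM, reads per kilobase of gene scaled to the size of the library with TMM factors, so that genes can be compared. Shoot markers summed to 18600 to 29100 normalised RPKM over the libraries, and SAG12, a gene of late leaf senescence, was at 0 in every group but 1, where its highest library had 0.0263 normalised RPKM. Root markers summed to 31.0 to 41.5 normalised RPKM at stress and 22.6 to 33.3 at control, and guard cell markers to 17.2 to 23.6 normalised RPKM at stress and 27.1 to 35.7 at control. Within these sums the markers differed. In WT the root log2 fold changes at stress were 1.53 for EXPA7, 0.67 for COBL9, 0.51 for TIP2;3 and -0.15 for SCR. The guard cell values were -1.28 for KAT1, -0.99 for MYB60 and -0.23 for FMA. Of these, EXPA7, KAT1 and MYB60 passed an adjusted p of 0.05 in edgeR. In whole seedlings, a change in the number of cells of a type and a change in the RNA of each cell cannot be told apart, and the part of these marker shifts in the results below was not tested.

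The genes lie on all chromosomes of the nuclear genome, at these positions of assembly TAIR10.1. HAI1 is AT5G59220 (chr5:23894404-23896939, minus strand, 3 to 4 exons). HAI2 is AT1G07430 (chr1:2280746-2282828, minus strand, 3 exons). HAI3 is AT2G29380 (chr2:12608675-12610350, plus strand, 3 exons). ABI1 is AT4G26080 (chr4:13219915-13222376, minus strand, 4 exons). ABI2 is AT5G57050 (chr5:23087122-23089631, plus strand, 3 to 5 exons). HAB1 is AT1G72770 (chr1:27389948-27393327, plus strand, 4 to 6 exons). HAB2 is AT1G17550 (chr1:6034270-6037398, plus strand, 4 to 5 exons). AHG3 is AT3G11410 (chr3:3583782-3585850, minus strand, 4 exons). AHG1 is AT5G51760 (chr5:21026805-21029188, plus strand, 4 to 5 exons). Their longest coding sequences span 362 codons in HAI3 to 511 codons in HAB1 and HAB2, and 0 of their reads were shared with other places in the genome. ABI1 overlaps a gene on the other strand and the other 8 overlap 0 genes.

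The start of each gene carries the DNA to which ABA-responsive factors could bind, and windows from 250 bases before to 50 after the annotated start were read from the RefSeq annotation of assembly TAIR10.1. The windows of the HAI trio and of AHG3 are shown, because the trio differs most in response among close relatives and AHG3 holds the most ABRE cores. The ABRE core ACGTG, the sequence recognised by ABF-type factors, is in capitals on either strand, and a palindromic CACGTG holds a match on each strand. The windows are HAI2 at chr1:2282779-2283078, minus strand, HAI3 at chr2:12608425-12608724, plus strand, HAI1 at chr5:23896890-23897189, minus strand, and AHG3 at chr3:3585801-3586100, minus strand, each written 5′ to 3′ along its gene.
HAI2: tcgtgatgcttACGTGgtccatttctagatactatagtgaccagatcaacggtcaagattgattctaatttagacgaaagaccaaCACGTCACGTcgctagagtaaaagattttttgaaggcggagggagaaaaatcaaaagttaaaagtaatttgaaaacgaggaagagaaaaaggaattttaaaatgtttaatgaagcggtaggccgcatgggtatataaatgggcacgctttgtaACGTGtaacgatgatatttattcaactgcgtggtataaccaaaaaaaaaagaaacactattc
HAI3: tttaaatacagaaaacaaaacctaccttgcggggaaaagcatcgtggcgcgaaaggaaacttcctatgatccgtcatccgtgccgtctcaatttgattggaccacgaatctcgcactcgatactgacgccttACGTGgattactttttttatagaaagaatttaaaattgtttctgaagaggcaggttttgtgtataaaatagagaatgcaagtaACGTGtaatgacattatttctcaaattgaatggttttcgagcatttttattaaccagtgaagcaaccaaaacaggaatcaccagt
HAI1: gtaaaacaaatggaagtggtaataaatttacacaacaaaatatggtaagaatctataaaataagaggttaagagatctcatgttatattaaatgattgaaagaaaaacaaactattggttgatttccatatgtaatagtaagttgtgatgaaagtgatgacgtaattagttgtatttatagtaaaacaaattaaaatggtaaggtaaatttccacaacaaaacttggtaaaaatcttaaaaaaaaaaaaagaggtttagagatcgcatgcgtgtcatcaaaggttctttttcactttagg
AHG3: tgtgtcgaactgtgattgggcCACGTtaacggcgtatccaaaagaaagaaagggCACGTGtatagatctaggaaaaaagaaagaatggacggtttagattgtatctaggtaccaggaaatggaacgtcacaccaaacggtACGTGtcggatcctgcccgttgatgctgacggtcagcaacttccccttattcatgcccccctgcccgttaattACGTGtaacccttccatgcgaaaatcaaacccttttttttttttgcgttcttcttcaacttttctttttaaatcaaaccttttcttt

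The ABRE core occurred at least once in the windows of 6 of the 9 genes, against 26.7% of 27443 promoters of the same length. Counting each strand, AHG3 had 5 matches, HAI2 and AHG1 had 4 each, HAB2 and HAI3 had 2 each and HAB1 had 1, while ABI1, ABI2 and HAI1 had 0 in this window. At least 2 matches were found in 10.7% of all promoters. The longer form ACGTGNC, searched on both strands and containing the core, occurred in AHG3 with 3 matches and in HAB1, AHG1 and HAI2 with 1 each, against 10.3% of all promoters.

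The dehydration-responsive core CCGAC, bound by DREB factors, was in the windows of AHG1 and AHG3, against 15.0% of all promoters. In AHG3 it lies on the strand opposite the gene and overlaps the last base of an ABRE core match. CAATNATTG, with any base in the middle, is a pattern that includes the site of class I homeodomain-leucine zipper factors such as HB7. It was in 0 of the 9 windows and in 1.1% of all promoters, a share that may take in other sites. Base composition differed widely between the members. The AHG1 and AHG3 windows had 56.0% and 57.0% A and T, at percentiles 1.9 and 2.9 of all promoters, and the ABI1 and ABI2 windows had 79.0% and 75.7%, at percentiles 98.3 and 92.6. A match is a description of the letters in the window and does not show binding, and the window is only the nearest part of the promoter.

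**Figure D1:**
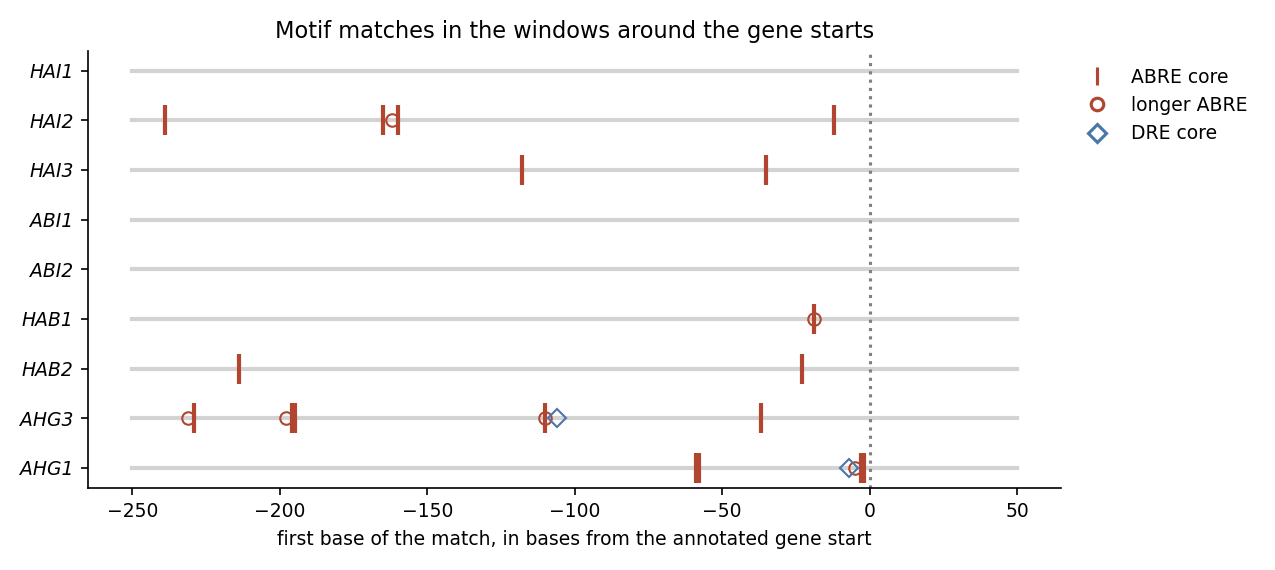
Position of the motif matches in the 9 windows: the horizontal axis gives the first base of each match in bases from the annotated gene start, the dotted line, and each row is a gene. Red bars are the ABRE core on either strand, red circles the longer form ACGTGNC and blue diamonds CCGAC; AHG3 has 5 red bars, and the rows of HAI1, ABI1 and ABI2 are empty.

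At low water potential 7 of the 9 genes rose and 0 fell in each of the 3 genotypes, by edgeR's quasi-likelihood test with Benjamini-Hochberg adjustment over all genes tested. Of all genes tested, 15.7% were called higher and 14.4% lower in ahl10-1, 14.9% higher and 14.7% lower in rrp6l1-2, and 12.6% higher and 13.4% lower in WT. That split depends on the scaling: 3576 of 6861 called genes were higher in ahl10-1, 3388 of 6733 in rrp6l1-2 and 2879 of 5941 in WT, against 4113 of 6525 in ahl10-1, 4942 of 7233 in rrp6l1-2 and 3389 of 5616 in WT with plain library sizes, and 7 members rose in each genotype either way. In each genotype the genes that rose were HAI1, HAI2, ABI1, ABI2, HAB1, HAB2 and AHG3, and their 3 stress libraries all lay above the 3 control libraries. Groups that do not overlap, in either direction, were found for 40.1% of all genes in ahl10-1, 44.7% in rrp6l1-2 and 43.2% in WT. The median log2 fold change over the 9 members was 1.15 in ahl10-1, 0.96 in rrp6l1-2 and 0.86 in WT, where the median over all genes tested was 0.0059 in ahl10-1, 0.0216 in rrp6l1-2 and -0.0029 in WT. Leaving out 1 library at a time, the number of members called higher was 7 to 8 in ahl10-1, 5 to 7 in rrp6l1-2, where it was 5 without control replicate 2, and 6 to 7 in WT. The authors' deposited table for WT also calls 7 members higher and 0 lower, where 12.6% of its genes with an adjusted p are called higher and 14.2% lower.

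**Figure D2:**
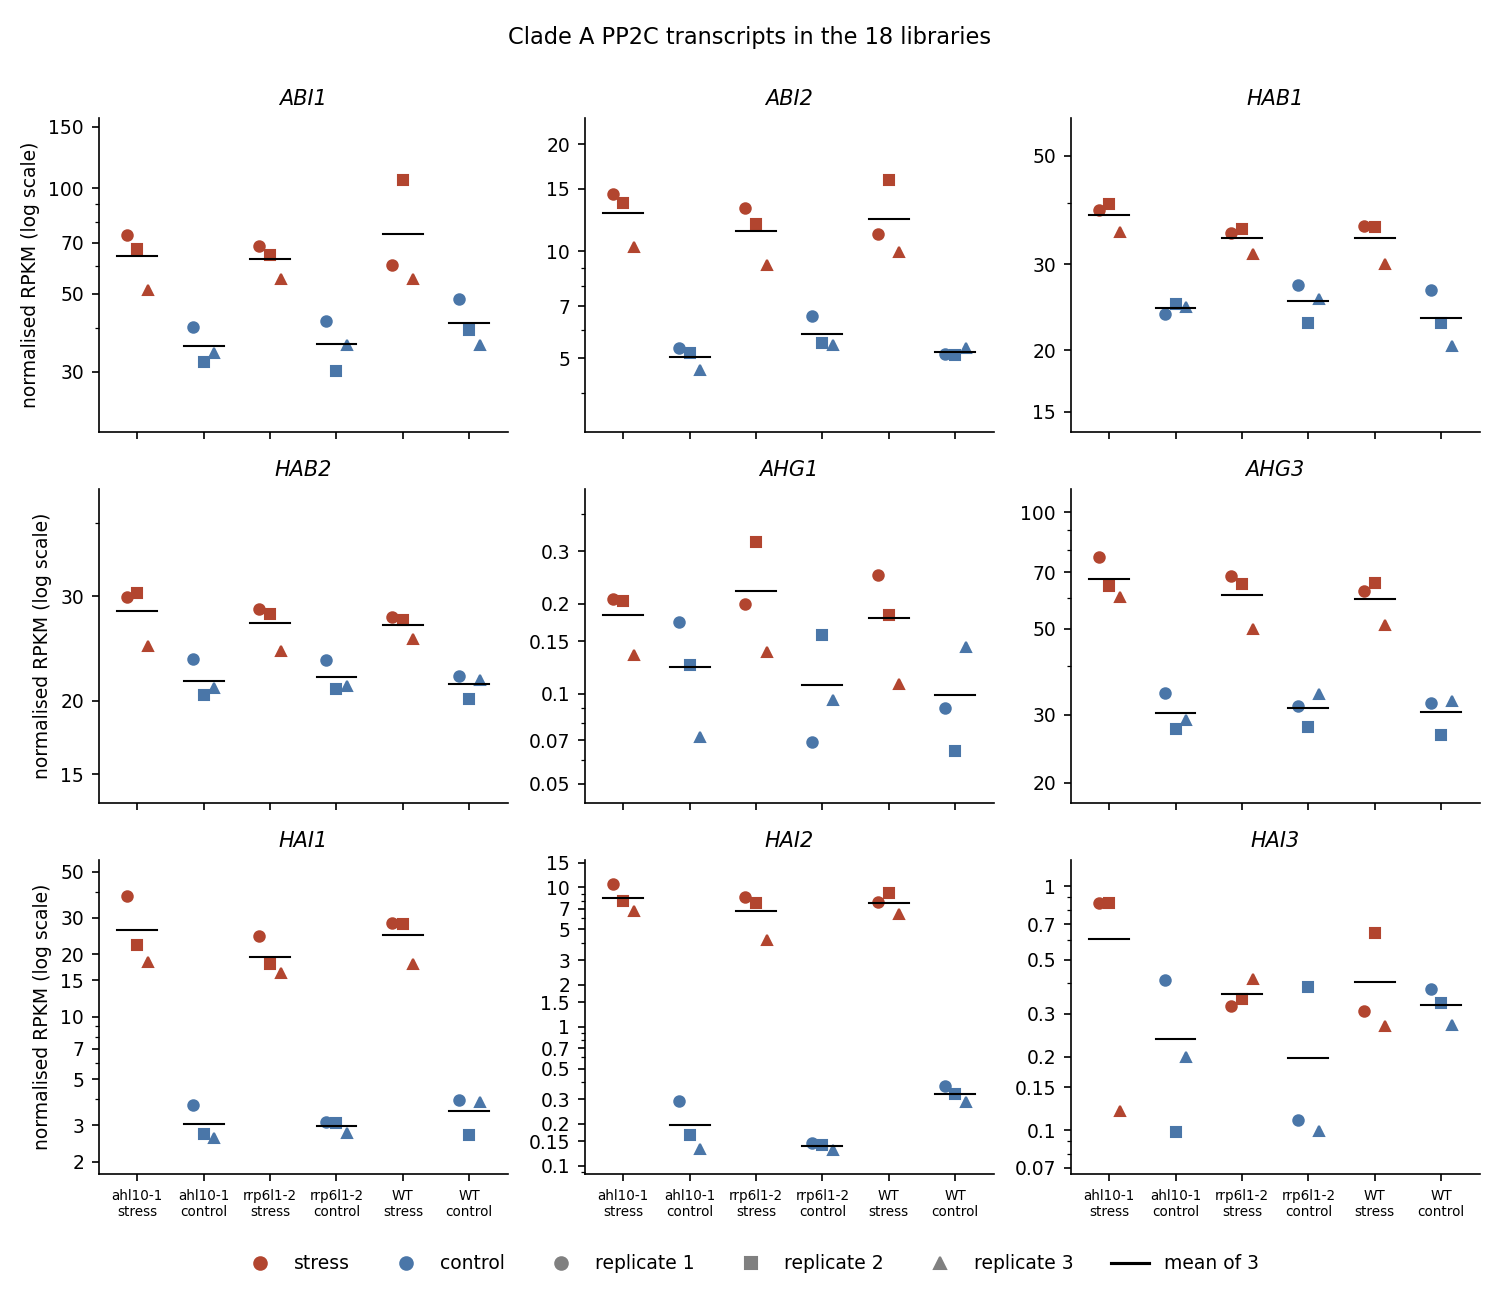
Level of each clade A PP2C gene in every library, in normalised RPKM on a log axis, with stress in red to the left of control in blue for each genotype and a black line at the mean of 3 libraries; circles, squares and triangles are replicates 1, 2 and 3. HAI1 and HAI2 show the widest gap between treatments, HAI3 and AHG1 overlap between treatments, and the triangle is the lowest stress library in most panels.

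HAI1, also known as SAG113 for its rise in senescing leaves, was the most abundant of the HAI trio. Its 3 stress libraries had 38.0, 22.3 and 18.4 normalised RPKM in ahl10-1, against 3.75, 2.74 and 2.61 at control. In rrp6l1-2 they had 24.4, 17.9 and 16.3, against 3.13, 3.09 and 2.75 at control. In WT they had 28.4, 28.0 and 17.9, against 3.98, 2.69 and 3.90 at control. Every stress library stood far above every control library. The log2 fold change was 3.11 ± 0.286 in ahl10-1 (± SE, adjusted p = 2.33e-06), 2.71 ± 0.283 in rrp6l1-2 (adjusted p = 1.01e-05) and 2.81 ± 0.281 in WT (adjusted p = 6.3e-06), the last a 7.02-fold rise.

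HAI2, also named AIP1 for its interaction with the potassium channel AKT1 and HONSU for its part in seed dormancy, showed the largest fold change of the 9 in every genotype. Its stress libraries had 10.5, 8.0 and 6.76 normalised RPKM in ahl10-1, against 0.292, 0.166 and 0.131 at control. In rrp6l1-2 they had 8.55, 7.68 and 4.22, against 0.146, 0.140 and 0.130 at control. In WT they had 7.82, 9.07 and 6.49, against 0.375, 0.326 and 0.285 at control. The gene was thus close to silent in unstressed seedlings, where the control groups rest on 68 reads over 3 libraries in ahl10-1, 44 in rrp6l1-2 and 114 in WT, and no stress library came near them. HAI2 rose by 5.39 ± 0.312 in ahl10-1 (42.0-fold, adjusted p = 1.58e-08), 5.61 ± 0.327 in rrp6l1-2 (48.7-fold, adjusted p = 3.29e-08) and 4.56 ± 0.292 in WT (23.6-fold, adjusted p = 6.5e-08) on the log2 scale. By p-value HAI2 ranked 18th of all genes tested in ahl10-1, 10th in rrp6l1-2 and 20th in WT.

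HAI3, the third of the trio, was scarce in every group and was not called in any genotype. Its stress libraries had 0.854, 0.855 and 0.120 normalised RPKM in ahl10-1, against 0.412, 0.0987 and 0.199 at control. In rrp6l1-2 they had 0.322, 0.346 and 0.417, against 0.110, 0.385 and 0.0993 at control. In WT they had 0.307, 0.641 and 0.268, against 0.378, 0.333 and 0.269 at control. Stress and control libraries overlapped in all 3 genotypes, and the groups rest on 46 to 155 reads. The log2 fold change was 1.35 ± 0.638 in ahl10-1 (adjusted p = 0.123), 0.84 ± 0.67 in rrp6l1-2 (adjusted p = 0.367) and 0.31 ± 0.631 in WT (adjusted p = 0.76), and the 95% interval in WT, -1.06 to 1.69, covers a change of either sign. Without the low ahl10-1 stress replicate 3, the ahl10-1 value was 1.83 and passed the test (adjusted p = 0.0215).

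ABI1 and ABI2 are the founding members of the clade, found through dominant mutants that no longer respond to ABA. ABI1 had 73.7, 67.2 and 51.3 normalised RPKM in stressed ahl10-1, against 40.1, 32.0 and 34.0 at control. In rrp6l1-2 it had 68.7, 64.7 and 55.1 at stress, against 41.8, 30.2 and 35.8 at control. In WT it had 60.3, 106 and 55.2 at stress, against 48.4, 39.4 and 35.7 at control. The groups did not overlap, but WT stress replicate 2 stood far above the others of its group. On the log2 scale ABI1 rose by 0.86 ± 0.219 in ahl10-1 (adjusted p = 0.00844), 0.81 ± 0.219 in rrp6l1-2 (adjusted p = 0.0129) and 0.84 ± 0.219 in WT (adjusted p = 0.0107). In rrp6l1-2 the call was lost without control replicate 2 (0.68, adjusted p = 0.0563). Without WT stress replicate 2 the WT value was 0.49 and missed the threshold (adjusted p = 0.0513), as it did with the WT libraries fitted alone, at 0.84 (adjusted p = 0.0871). ABI1 overlaps the neighbouring gene AT4G26070 on the other strand by 22 bases, so reads there could not be assigned with certainty. That neighbour differed between stress and control by 0.03 to 0.17 on the log2 scale.

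ABI2 was less abundant than ABI1 and its response was larger in all 3 genotypes, a difference that was not tested. It had 14.5, 13.7 and 10.3 normalised RPKM in stressed ahl10-1, against 5.34, 5.19 and 4.65 at control. In rrp6l1-2 it had 13.2, 11.9 and 9.12 at stress, against 6.59, 5.52 and 5.47 at control. In WT it had 11.2, 15.8 and 9.96 at stress, against 5.14, 5.10 and 5.36 at control. The WT control libraries were close together, with a spread of 0.142 (SD), and every stress library was well above every control library. On the log2 scale ABI2 rose by 1.34 ± 0.17 in ahl10-1 (adjusted p = 2.73e-05), 0.96 ± 0.168 in rrp6l1-2 (adjusted p = 0.000595) and 1.25 ± 0.169 in WT (adjusted p = 6.42e-05).

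HAB1 and HAB2, the close relatives of ABI1 and ABI2, rose by little, in every stress library. HAB1 had 38.7, 39.9 and 34.9 normalised RPKM in stressed ahl10-1, against 23.7, 24.9 and 24.6 at control. In rrp6l1-2 it had 34.8, 35.4 and 31.5 at stress, against 27.2, 22.8 and 25.5 at control. In WT it had 36.0, 35.8 and 30.1 at stress, against 26.6, 22.8 and 20.4 at control. All stress libraries lay above the control libraries of their genotype. HAB1 rose by 0.63 ± 0.0969 in ahl10-1 (adjusted p = 0.000148), 0.43 ± 0.0968 in rrp6l1-2 (adjusted p = 0.00369) and 0.54 ± 0.0969 in WT (adjusted p = 0.000618) on the log2 scale.

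HAB2 averaged 28.3 ± 3.16 normalised RPKM in stressed ahl10-1 and 21.6 ± 1.62 at control (SD, n = 3 each). It averaged 27.0 ± 2.31 in stressed rrp6l1-2 and 21.9 ± 1.38 at control. In WT it had 27.7, 27.4 and 25.4 at stress, against 22.0, 20.1 and 21.7 at control. The groups did not overlap in any genotype, yet this was the smallest of the 7 rises. It was 0.39 ± 0.0862 in ahl10-1 (adjusted p = 0.00288), 0.30 ± 0.0862 in rrp6l1-2 (adjusted p = 0.015) and 0.33 ± 0.0861 in WT (adjusted p = 0.00902) on the log2 scale. In rrp6l1-2 the call was lost without stress replicate 1 (0.24), stress replicate 2 (0.28), control replicate 2 (0.25) or control replicate 3 (0.28).

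AHG3, also called PP2CA, is known from ABA-hypersensitive germination and from its control of ion channels in guard cells, and with ABI1 it was one of the pair of most abundant members. It had 76.7, 64.5 and 60.4 normalised RPKM in stressed ahl10-1, against 34.2, 27.5 and 29.0 at control. In rrp6l1-2 it had 68.6, 65.4 and 49.9 at stress, against 31.5, 27.9 and 33.9 at control. In WT it had 62.6, 65.5 and 51.2 at stress, against 32.1, 26.5 and 32.5 at control. The lowest stress library exceeded the highest control library in each genotype by a wide margin. AHG3 rose by 1.15 ± 0.137 in ahl10-1 (adjusted p = 1.52e-05), 0.98 ± 0.137 in rrp6l1-2 (adjusted p = 8.21e-05) and 0.98 ± 0.137 in WT (adjusted p = 8e-05) on the log2 scale.

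AHG1 acts mainly in seeds and is known to escape block by the ABA receptors. It was the scarcest member in WT, with 0.250, 0.183 and 0.108 normalised RPKM at stress, against 0.0894, 0.0646 and 0.144 at control, on 56 and 29 reads in all. The means were 0.183 ± 0.0415 at stress and 0.123 ± 0.0509 at control in ahl10-1, and 0.221 ± 0.0943 at stress and 0.107 ± 0.0448 at control in rrp6l1-2 (SD, n = 3 each). Treatments overlapped in every genotype, and the gene was not called. Its log2 fold change was 0.55 ± 0.463 in ahl10-1 (adjusted p = 0.402), 1.02 ± 0.469 in rrp6l1-2 (adjusted p = 0.113) and 0.86 ± 0.473 in WT (adjusted p = 0.198). Of the seed markers, SESA1 was at 0 in all libraries of 3 groups, and the 3 markers together summed to at most 3.04 normalised RPKM at stress and 14.8 at control, both in rrp6l1-2.

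**Figure D3:**
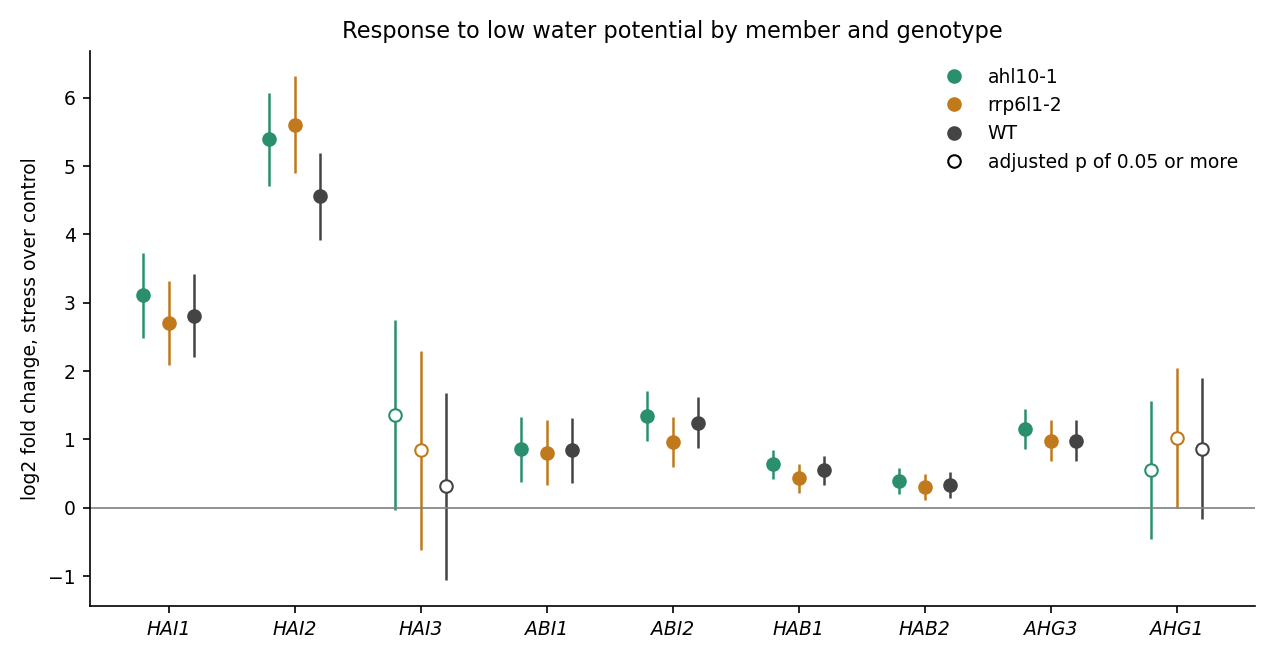
Log2 fold change of each gene at stress over control in ahl10-1, rrp6l1-2 and WT, with approximate 95% intervals computed from the edgeR test statistic. Open symbols did not pass an adjusted p of 0.05. HAI2 lies between 4.56 and 5.61 and HAI1 between 2.71 and 3.11, the other called genes lie between 0.30 and 1.34, and HAI3 and AHG1 are open in all 3 genotypes.

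The order of the levels changed with the treatment in the middle of the family and was stable at its ends in WT. In stressed WT seedlings the means ran from ABI1 at 73.9 ± 28.1 normalised RPKM through AHG3 at 59.8 ± 7.55, HAB1 at 34.0 ± 3.30, HAB2 at 26.8 ± 1.29, HAI1 at 24.8 ± 5.96, ABI2 at 12.3 ± 3.07 and HAI2 at 7.79 ± 1.29 to HAI3 at 0.406 ± 0.205 and AHG1 at 0.180 ± 0.071. In WT at control they ran from ABI1 at 41.2 ± 6.55 through AHG3 at 30.4 ± 3.33, HAB1 at 23.3 ± 3.11, HAB2 at 21.3 ± 1.01, ABI2 at 5.20 ± 0.142, HAI1 at 3.52 ± 0.722 and HAI2 at 0.329 ± 0.0453 to HAI3 at 0.326 ± 0.0548 and AHG1 at 0.0993 ± 0.0405. At stress ABI1 and AHG3, and HAB2 and HAI1, overlapped between neighbours, and at control AHG3 and HAB1, HAB1 and HAB2, and HAI2 and HAI3 did. HAI1 stood above ABI2 without overlap at stress and below it without overlap at control, in each of the 3 genotypes. In WT HAI2 lay well above HAI3 at stress and with it at control.

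Summed over the 9 genes, the level was 246 ± 38.0 normalised RPKM at stress and 120 ± 9.64 at control in ahl10-1, a 2.04-fold difference. It was 223 ± 29.0 at stress and 123 ± 11.6 at control in rrp6l1-2, or 1.81-fold. In WT it was 240 ± 46.2 at stress and 125 ± 11.9 at control, or 1.91-fold (SD, n = 3 each). The summed values did not overlap between treatments in any genotype. The HAI trio made up 14.1% ± 2.89 of the sum at stress and 2.86% ± 0.466 at control in ahl10-1, 11.9% ± 1.39 at stress and 2.72% ± 0.465 at control in rrp6l1-2, and 13.7% ± 1.64 at stress and 3.32% ± 0.436 at control in WT. Although HAI2 had the largest fold change, it accounted for 6.56% of the summed rise in ahl10-1, 6.68% in rrp6l1-2 and 6.53% in WT. HAI1 accounted for 18.5% in ahl10-1, 16.5% in rrp6l1-2 and 18.6% in WT. AHG3 accounted for 29.5% in ahl10-1, 30.2% in rrp6l1-2 and 25.7% in WT, and ABI1 for 22.9% in ahl10-1, 26.9% in rrp6l1-2 and 28.6% in WT. The ABI1 share in WT rests on the high WT stress replicate 2, and without that library it was 18.4%, against 29.5% for AHG3 and 21.8% for HAI1. The mean ratio of HAI1 to HAI2 was 3.04 at stress and 16.5 at control in ahl10-1, 3.02 at stress and 21.5 at control in rrp6l1-2, and 3.16 at stress and 10.9 at control in WT.

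**Figure D4:**
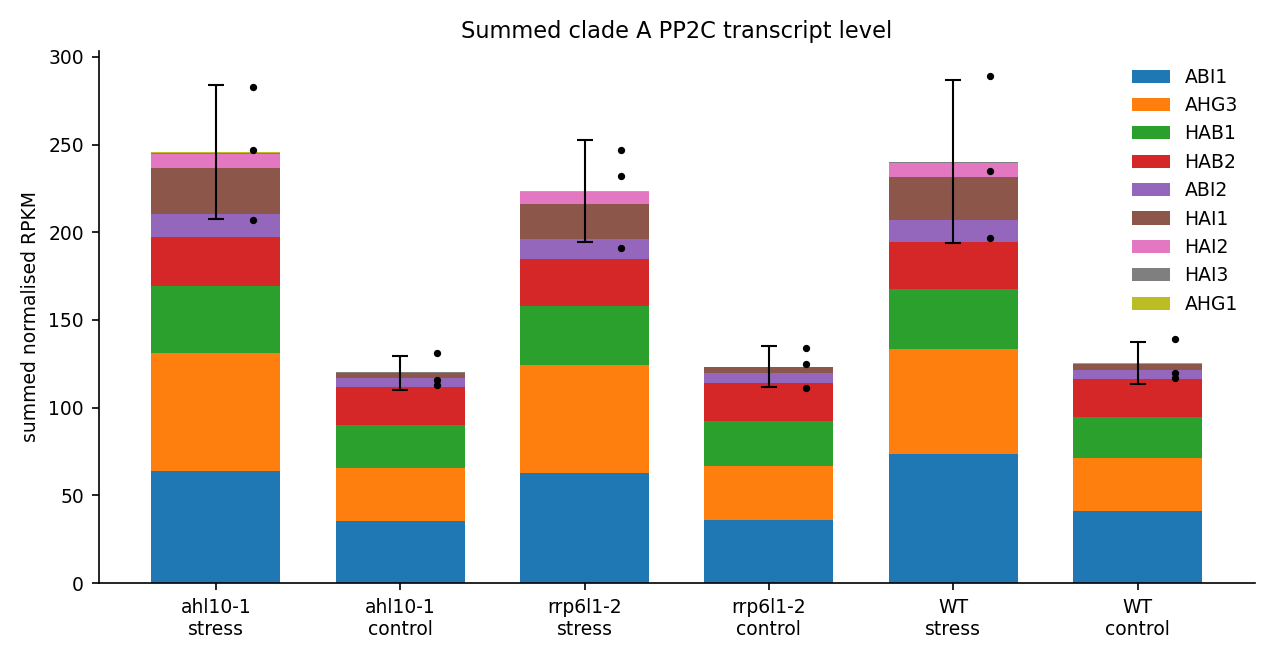
Summed level of the 9 genes by group in normalised RPKM, stacked by gene, with stress to the left of control in each genotype; points are the 3 libraries and bars their SD around the mean. The stress columns reach 223 to 246 and the control columns 120 to 125, and HAI1 and HAI2 are visible segments mainly at stress.

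Stress replicate 3 was the lowest of its group in all 3 genotypes for 8 of the 9 genes, every member except HAI3, a pattern noticed after the values were seen. The same held for 7.6% of all genes tested, for 9.51% of the 2039 genes called higher at stress in all 3 genotypes, and for 13 of 22 ABA and dehydration-induced genes. HAI2 in rrp6l1-2 shows the size of the gap, with 4.22 normalised RPKM in stress replicate 3 and 7.68 and 8.55 in the other two. With replicate 3 left out of every group, 7 members were called higher in ahl10-1, 6 in rrp6l1-2 and 7 in WT, and 0 were called lower. The shares of all genes called at stress in that smaller fit are not given here. The member lost in rrp6l1-2 was one of the borderline calls, ABI1, at 0.89 (adjusted p = 0.051). What set stress replicate 3 apart was not tested.

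The mutants were then compared with WT at each treatment, and 0 of the 9 genes were called in any of the 4 comparisons by edgeR with the 6 group means. The share of all genes called was 0.0351% in ahl10-1 at stress, 0.0263% in ahl10-1 at control, 0.0834% in rrp6l1-2 at stress and 0.211% in rrp6l1-2 at control, by the same fit. In rrp6l1-2 at control HAI2 was called with the replicate number as a block, where 0.649% of all genes were, and with DESeq2, where 3.6% were. There limma called 0 members and 0.145% of all genes. In the other 3 comparisons DESeq2 called 0 members, and 0.118% of all genes in ahl10-1 at stress, 0.0965% in ahl10-1 at control and 0.241% in rrp6l1-2 at stress. At an unadjusted p under 0.05 in edgeR, 1 member passed in rrp6l1-2 at control, where 17.6% of all genes did. In the other comparisons 0 members passed, where 4.35% of all genes did in ahl10-1 at stress, 5.94% in ahl10-1 at control and 3.77% in rrp6l1-2 at stress. The authors' deposited tables of these 4 comparisons call 0 members, and the share of all genes called in those tables is not given here.

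HAI2 in rrp6l1-2 at control was the member that came nearest. It had 0.146, 0.140 and 0.130 normalised RPKM in rrp6l1-2, against 0.375, 0.326 and 0.285 in WT, or 15, 16 and 13 reads in rrp6l1-2 against 45, 36 and 33 in WT. The libraries did not overlap, as was so for 21.9% of all genes in this comparison. The log2 fold change was -1.24 ± 0.373 (unadjusted p = 0.00447, adjusted p = 0.141), with a 95% interval of -2.05 to -0.42. With the replicate number as a block, where same-numbered libraries deviated together, the value was -1.24 and passed (adjusted p = 0.0442), and DESeq2 gave -1.23 (adjusted p = 0.031). Over the 14 alternatives of this value the adjusted p ran from 0.031 to 0.587, and 2 passed. The authors' deposited table lists -0.46 with an adjusted p of 0.0785. Whether its fold changes were shrunken is not stated, so their size may not be on the same scale as the values above. In ahl10-1 at control HAI2 had 0.292, 0.166 and 0.131 normalised RPKM, which overlapped with WT, at a log2 fold change of -0.72 ± 0.347 (adjusted p = 0.793).

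At stress HAI2 averaged 8.42 ± 1.90 normalised RPKM in ahl10-1, 6.82 ± 2.29 in rrp6l1-2 and 7.79 ± 1.29 in WT, and the libraries overlapped. Its log2 fold change against WT was 0.11 ± 0.233 in ahl10-1 (adjusted p = 0.998) and -0.19 ± 0.234 in rrp6l1-2 (adjusted p = 1). HAI1, reported elsewhere to act on the AHL10 protein, differed from WT at stress by 0.08 ± 0.256 in ahl10-1 (95% interval -0.47 to 0.64) and by -0.34 ± 0.257 in rrp6l1-2 (-0.90 to 0.22). At control it differed by -0.21 ± 0.28 in ahl10-1 (-0.82 to 0.40) and by -0.24 ± 0.281 in rrp6l1-2 (-0.85 to 0.38). These intervals leave room for a change of up to 0.82 on the log2 scale in ahl10-1 and 0.90 in rrp6l1-2, so a miss of the threshold does not show equal levels.

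ABI1, the member with the highest mean in WT, differed from WT at stress by -0.21 ± 0.217 in ahl10-1 (95% interval -0.68 to 0.27) and by -0.23 ± 0.218 in rrp6l1-2 (-0.71 to 0.24). For HAB1, HAB2 and AHG3 the intervals were narrower. For HAB2 the 95% interval of the difference from WT was -0.11 to 0.27 in ahl10-1 and -0.18 to 0.20 in rrp6l1-2 at stress, and for HAB1 it was -0.05 to 0.37 in ahl10-1 and -0.21 to 0.21 in rrp6l1-2. AHG3 lay within -0.12 to 0.46 in ahl10-1 and -0.26 to 0.33 in rrp6l1-2 at stress. ABI2 was the other member whose rrp6l1-2 and WT libraries did not overlap at control, at 6.59, 5.52 and 5.47 normalised RPKM in rrp6l1-2 against 5.14, 5.10 and 5.36 in WT, with a log2 fold change of 0.17 ± 0.169 (adjusted p = 0.64). In ahl10-1 0 of 9 members had libraries that did not overlap with WT at either treatment, where 11.9% of all genes did at stress and 7.73% at control, and in rrp6l1-2 at stress it was 0 of 9 against 14.4%.

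**Figure D5:**
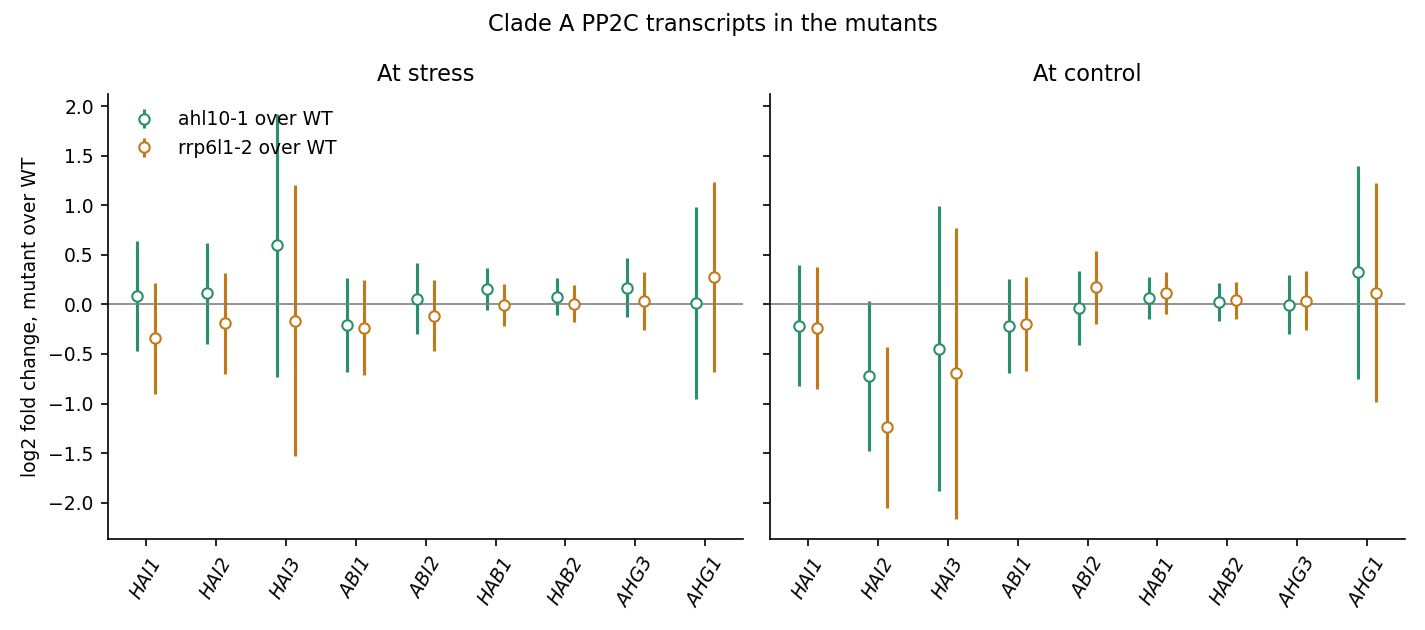
Log2 fold change of each gene in ahl10-1 and rrp6l1-2 over WT, at stress on the left and at control on the right. Bars are approximate 95% intervals computed from the edgeR test statistic. All symbols are open because 0 of 9 genes passed an adjusted p of 0.05; the interval of HAI2 in rrp6l1-2 at control, -2.05 to -0.42, is the one that does not include 0.

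The difference of the stress response between each mutant and WT was tested as an interaction. It was called by edgeR for 0 of 9 members and for 0% of all genes in both mutants. DESeq2 and limma also called 0 members, and their shares over all genes are not given here. An unadjusted p under 0.05 in edgeR was found for 0 members and 1.39% of all genes in ahl10-1. In rrp6l1-2 it was found for 1 member and 1.68% of all genes. The member was HAI2, whose response was larger in rrp6l1-2 by 1.05 ± 0.442 on the log2 scale (unadjusted p = 0.0313, adjusted p = 1). In ahl10-1 it was larger by 0.83 ± 0.418 (unadjusted p = 0.0647, adjusted p = 1). Both values share the WT libraries, and both rest on the low read counts of HAI2 at control. For HAI1 the differences were 0.30 ± 0.38 in ahl10-1 and -0.11 ± 0.381 in rrp6l1-2.

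The rest of the ABA signalling chain was described by the same counts, from lists drawn up from general knowledge of the pathway. Of 14 PYR/PYL receptor genes 11 were tested, and at stress 8 fell in ahl10-1, 8 in rrp6l1-2 and 9 in WT, with 0 rises, while 7 of the 9 phosphatase genes rose. Of all genes tested, 13.4% to 14.7% were called lower and 12.6% to 15.7% higher, depending on the genotype. The median log2 fold change of the receptor genes was -0.91 in ahl10-1, -1.01 in rrp6l1-2 and -0.89 in WT. PYL6 was at 0.935 ± 0.246 normalised RPKM at stress and 15.0 ± 6.21 at control in WT (SD, n = 3), and PYL4 at 24.2 ± 2.39 at stress and 119 ± 21.7 at control. The log2 fold changes in WT were -3.99 ± 0.335 for PYL6 (adjusted p = 8.67e-07), -2.31 ± 0.178 for PYL4 (adjusted p = 3.69e-07) and -2.40 ± 0.205 for PYL5 (adjusted p = 1.08e-06).

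Of the 10 SnRK2 kinase genes 3 rose and 2 fell in each genotype, where 12.6% to 15.7% of all genes were called higher and 13.4% to 14.7% lower. In WT SNRK2.7 rose by 1.14 ± 0.147 and SNRK2.6, the OST1 kinase of stomatal closure, by 0.45 ± 0.0918, while SNRK2.8 changed by -0.81 ± 0.127. Of 7 tested ABF and ABI5 family factors 5 rose and 0 fell in each genotype. ABI5, a factor of seed and seedling ABA responses, rose by 1.69 ± 0.187 in ahl10-1, 1.35 ± 0.184 in rrp6l1-2 and 1.08 ± 0.181 in WT, and ABF2 rose by 0.66 ± 0.0785 and ABF4 by 0.27 ± 0.0725 in WT. The ABF4 call was lost without WT control replicate 2 (0.25, adjusted p = 0.0513).

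Among 19 genes of known partners and regulators of clade A PP2C proteins, 3 rose and 2 fell in ahl10-1, 2 rose and 2 fell in rrp6l1-2, and 4 rose and 4 fell in WT. The shares over all genes were 15.7% higher and 14.4% lower in ahl10-1, 14.9% and 14.7% in rrp6l1-2, and 12.6% and 13.4% in WT. EAR1, whose product raises PP2C activity, was at 40.0 ± 1.27 normalised RPKM at stress and 71.4 ± 1.86 at control in WT, a change of -0.83 ± 0.061 (adjusted p = 1.71e-07). In WT AHL10 rose by 0.46 ± 0.075 and HB6, a homeodomain factor that binds ABI1, by 0.43 ± 0.106. Of 22 ABA and dehydration-induced genes 19 rose in ahl10-1, 15 in rrp6l1-2 and 16 in WT, with 0 falls. The 3 with the smallest adjusted p in WT were the proline synthesis gene P5CS1 at 3.28 ± 0.142, RD20 at 3.38 ± 0.177 and HB7 at 2.08 ± 0.127 on the log2 scale. The largest change of the list in WT was that of COR15A, at 3.69, a gene named after its value was seen. Against WT, AHL10 in ahl10-1 was the member of these 5 lists that edgeR called, at both treatments, and 0 others were. Over the 4 comparisons with WT, 0.0263% to 0.211% of all genes were called by the same fit. In rrp6l1-2 at control AHL10 was at -0.25 ± 0.0752 by edgeR (adjusted p = 0.142). The authors' deposited DESeq2 table does call it lower there, at -0.23 (adjusted p = 0.0485).

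The other PP2C clades give the family background. Of 46 genes of clades B to G 45 were tested, and at stress 10 rose and 8 fell in ahl10-1, 9 rose and 6 fell in rrp6l1-2, and 10 rose and 7 fell in WT. The shares over all genes were 15.7% higher and 14.4% lower in ahl10-1, 14.9% and 14.7% in rrp6l1-2, and 12.6% and 13.4% in WT. Their median log2 fold change was -0.06 in ahl10-1, -0.05 in rrp6l1-2 and -0.10 in WT. With plain library sizes it was 0.01 in ahl10-1, 0.06 in rrp6l1-2 and -0.03 in WT, so its sign in the mutants depends on the scaling. That of clade A was 1.22 in ahl10-1, 1.07 in rrp6l1-2 and 0.93 in WT on that scale. The clade E gene EGR2, known to restrain growth at low water potential, rose by 1.96 ± 0.225 in ahl10-1, 2.04 ± 0.229 in rrp6l1-2 and 1.76 ± 0.223 in WT. The other genes of clade E named by the smallest adjusted p in WT were EGR1, which rose by 0.58 ± 0.0757 on the log2 scale, and AT5G36250, which changed by -0.29 ± 0.0658. In clade F AT1G34750 changed by -0.45 ± 0.0978 and AT5G10740 by -0.36 ± 0.082, while WIN2 rose by 0.26 ± 0.0663, a call lost when replicate 2 of the WT stress group (0.21) or of the WT control group (0.22) was left out. In clade B AP2C4 rose by 0.70 ± 0.15, in clade D D9 rose by 0.35 ± 0.0814, and in clade C PLL1 rose by 0.53 ± 0.105 and POL by 0.20 ± 0.0596, the POL call being lost when WT stress replicate 3 (0.18) or WT control replicate 1 (0.16) or 2 (0.19) was left out. In clade G DBP1 rose by 0.31 ± 0.0734 and PP2CG1 by 0.20 ± 0.0691, the PP2CG1 call being lost when any 1 WT library other than control replicate 1 was left out (0.15 to 0.22). AP2C1, a phosphatase of mitogen-activated protein kinases, changed by -1.66 ± 0.539 in WT (adjusted p = 0.037), a call lost in 9 alternatives, among them without WT control replicate 1 (-0.54, adjusted p = 0.328) and without any 1 WT stress library.

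The genes whose pattern over the 6 groups was most like that of each HAI gene were found by the root-mean-square (RMS) difference of centred log2 CPM group means, among 18641 genes. For HAI1 they were MBP2, a myrosinase-binding protein, at 0.142, the linker histone gene HIS1-3, which is drought-induced, at 0.143, and BGLU18, a glucosidase that can release ABA from its glucose ester, at 0.150. For HAI2 they were AT2G37870, at 0.294, the anthocyanin gene DFR, at 0.419, and its MYB regulator PAP1, at 0.458, and HAI1 stood at rank 40 with 1.15. For HAI3 they were RNS1, a ribonuclease, at 0.05, BS1 at 0.127 and CEP2, a cysteine endopeptidase, at 0.145. The 6 points share their libraries within each group, and the HAI3 pattern rests on few reads.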

How the data were processed

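The authors deposited, per the file headers, 1 table per library with expected counts of reads, RPKM, the fraction of multi-mapped reads and other gene properties such as length. Further tables hold the authors' comparisons, per the file headers with the mean normalised signal, log2 fold change and its error, a test score, p-value and adjusted p-value. The submitters' processing notes name Bowtie2, DESeq2 and TAIR10. How reads were counted, and with which strand setting, is not given in the sources used here. Poly(A) RNA was made into stranded libraries, per the labels' protocols.

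Expected counts were rounded and tested with edgeR 4.0.16 (glmQLFit, robust; 6 group means; 12 residual degrees of freedom; TMM; filterByExpr by group). Benjamini-Hochberg adjustment ran over 22795 genes, with a call under 0.05. Fold changes carry the SE of the fit. Normalised RPKM is TMM-scaled CPM divided by the deposited length. Multi-mapped fractions were 0 for all 9 genes. DESeq2 1.42.0 and limma 3.58.1 on log2(RPKM + 0.5) or log2(RPKM + 0.1) were alternatives. The code was tested on simulated data. A count of 0 would allow up to 3 reads, for counting error only.

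The members and lists were chosen with earlier results of these data known. The text names the 9 members, AHL10 and RRP6L1, up to 3 members of each list (of each clade for the other PP2C genes) with the smallest adjusted p in WT, and the 3 nearest patterns of each HAI gene. Replicate numbers recur in all groups. Deviations of same-numbered libraries correlated above 0.1 in every pair for rrp6l1-2 against WT at control (0.158 to 0.478) and for stress against control in ahl10-1 (0.251 to 0.402) and in rrp6l1-2 (0.154 to 0.51). No per-sample column was left unused.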

Additional observations from a re-analysis of the deposited data

How the results depend on the processing

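Of 138 recomputed counts of called members, 136 stayed within 1.5 times the count reported, and the exceptions were rrp6l1-2 against WT at control with DESeq2 and with the replicate block, each calling 1 member, HAI2, in place of 0. Of 1241 recomputed log2 fold changes of members, 1230 kept their side of the threshold, 8 lost and 3 gained a call, and 0 calls changed sign, while 112 uncalled values did. The losses were ABI1 in WT (2) and in rrp6l1-2 (2, without control replicate 2 at 0.68 and without replicate 3 of every group at 0.89, an alternative chosen after seeing the data) and HAB2 in rrp6l1-2 (4). With limma on log2(RPKM + 0.5), which shrinks low genes by its construction, HAI2 rose by 3.43 at stress in rrp6l1-2 in place of 5.61.

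The replicate block changed no other call of a member: 7 in each genotype at stress and 0 in the other mutant comparisons. In WT at stress and the comparisons not named as paired, same-numbered libraries did not all correlate above 0.1 over genes, and the labels give them only a shared number, although stress replicate 3 was the lowest in all 3 genotypes for 8 of the 9 members. Over all genes, rrp6l1-2 against WT at control had 48 calls, 820 with DESeq2, 148 with the block and 7 without replicate 3. Plain library sizes moved the median of all genes by up to 0.127 (rrp6l1-2 at stress), and 7 members were called higher in each genotype. HAI2 at control, HAI3 and AHG1 rest on few reads, which limits what can be seen there.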
